A study of Mus musculus with 6 samples.

Results

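The 10 genes described here encode milk proteins, proteins of milk fat secretion and a transcription factor of the milk-producing (alveolar) cells of the mammary gland. They are Csn1s1, Csn1s2a, Csn2, Csn3, Wap, Lalba, Btn1a1, Glycam1, Xdh and Elf5. A gene was taken as measured where the array held a probe set assigned to it alone, and the probe set with the highest mean over all arrays stood for it. This gave 9 of the 10 genes, out of 19937 genes measured. The single probe set listing Lalba (α-lactalbumin) also lists another gene, so Lalba was not analysed here.

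RNA came from 6 individual whole tumors grown from 4T1, an established mammary carcinoma line of the mouse, in the fourth mammary gland of Balb/C mice after injection of 750000 cells. From day 7 after injection, the mice received water or TKI258 (dovitinib, an inhibitor of receptor tyrosine kinases including those for FGF, VEGF and PDGF) at 40 mg/kg, by mouth and daily for 14 days in both groups. Each group has 3 tumors, which the labels number as biological replicates. The sources used here do not give the age or sex of the mice. Each tumor was hybridized to 1 Affymetrix array, and values are log2 signals, so a step of 1 is a doubling. All tumors stem from a single cell line in a mammary gland of the host, and a whole-tumor sample can hold host gland, fat, skin, muscle and lymph node beside tumor cells. The comparison asked how these genes differed between tumors of treated and untreated mice.

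Caseins form the protein micelles of milk, and most of their genes lie side by side in one cluster. Prolactin turns on milk genes in alveolar cells through the kinase JAK2 and the transcription factor STAT5, and ELF5 acts with STAT5 in the same cells. The fourth mammary gland of the mouse also contains a fat pad and the inguinal lymph node, whose high endothelial venules make GLYCAM1 as a ligand of L-selectin on lymphocytes.

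Promoters of the members with the largest spread between tumors are shown with that of Wap, whose signal was nearly constant. Each is the 250 bases before the transcription start in RefSeq (mouse build GRCm38.p6), written 5′ to 3′, with matches to TTCNNNGAA, the letters of a STAT binding site, in capitals. The word reads the same on both strands.
Csn1s1, chr5:87665958-87666207, plus strand: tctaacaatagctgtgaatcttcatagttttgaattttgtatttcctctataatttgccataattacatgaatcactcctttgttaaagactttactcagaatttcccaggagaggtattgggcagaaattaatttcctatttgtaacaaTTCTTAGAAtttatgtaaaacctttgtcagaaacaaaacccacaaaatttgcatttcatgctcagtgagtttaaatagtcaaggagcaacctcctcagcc
Csn2, chr5:87699426-87699675, minus strand: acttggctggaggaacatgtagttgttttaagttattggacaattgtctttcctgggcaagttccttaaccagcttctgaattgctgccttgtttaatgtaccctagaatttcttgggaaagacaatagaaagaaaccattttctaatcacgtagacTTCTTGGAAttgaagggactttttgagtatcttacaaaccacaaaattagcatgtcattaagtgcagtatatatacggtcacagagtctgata
Csn1s2a, chr5:87774200-87774449, plus strand: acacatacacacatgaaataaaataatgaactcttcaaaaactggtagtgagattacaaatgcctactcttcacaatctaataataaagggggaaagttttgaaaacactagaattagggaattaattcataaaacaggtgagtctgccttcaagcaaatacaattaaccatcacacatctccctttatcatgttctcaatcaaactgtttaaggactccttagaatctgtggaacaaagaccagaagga
Glycam1, chr15:103565082-103565331, minus strand: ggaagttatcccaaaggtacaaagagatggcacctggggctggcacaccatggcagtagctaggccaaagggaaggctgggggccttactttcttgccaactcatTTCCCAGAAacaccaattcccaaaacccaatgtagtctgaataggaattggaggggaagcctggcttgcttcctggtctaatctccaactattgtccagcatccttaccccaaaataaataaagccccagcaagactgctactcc
Wap, chr11:6638650-6638899, minus strand: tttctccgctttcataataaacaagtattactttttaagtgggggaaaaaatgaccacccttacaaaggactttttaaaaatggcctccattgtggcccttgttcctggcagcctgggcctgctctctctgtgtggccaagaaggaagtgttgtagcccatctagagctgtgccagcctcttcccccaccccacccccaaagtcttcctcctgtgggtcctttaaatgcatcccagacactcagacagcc
TTCTTAGAA started 100 bases before the Csn1s1 start and TTCTTGGAA 93 bases before the Csn2 start. Glycam1 held TTCCCAGAA 145 bases upstream. Csn1s2a and Wap held no such word in this window. Of all 32851 promoter windows of this length, 7.02% held the word. The letters AGGAAG of an ETS site, the family of ELF5, were found at 2 positions in Wap when both strands were read, at 1 in Glycam1 and in neither Csn1s1, Csn2 nor Csn1s2a, against 29.5% of all windows. TTGGC, part of an NF1 site, occurred in Csn2, Wap and Glycam1 and in 41.5% of all windows.

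Some tumors stood apart before any comparison. Correlations between arrays over all probe sets were 0.973 to 0.993, and array medians were 6.38 to 6.44. The tumor keratins Krt8 and Krt18 were high in every tumor, at 11.55 to 11.88 and 11.13 to 11.70. B cell markers were high in water replicate 1 and TKI258 replicate 3, and keratinocyte markers in water replicates 2 and 3 (list means 6.75 and 6.49, against 4.90 to 5.16 in the other 4 tumors). Skeletal muscle markers were high in water replicate 2, with a list mean of 7.23 against 5.92 to 6.33 elsewhere and 9 of 12 markers highest there. In whole tumors, fewer cells of a type and less RNA per cell cannot be told apart.

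No member passed limma's adjusted test between the groups, the groups overlapped in every member, and what stood out was single tumors. The α- and β-casein genes Csn1s1, Csn1s2a and Csn2 were 5.47-fold to 10.9-fold higher in 1 TKI258 tumor than in any other tumor. Glycam1 was high in 1 tumor of each group. Of the 9 members, 8 had a higher mean in TKI258 tumors and 1, Wap, a lower one, with a median difference of 0.28 (TKI258 minus water, log2), whereas 56.6% of all genes were higher, with a median of 0.02. Without TKI258 replicate 2, 6 of 9 members were higher, with a median of 0.08. By limma with Benjamini-Hochberg adjustment over all probe sets, 0 of the 9 members passed the threshold of 0.05 and 0 of 34760 probe sets did (0%). At an unadjusted limma p under 0.05 there were again 0 of 9 members, against 2803 probe sets (8.06%). In 0 of 9 members did the TKI258 tumors all lie above or all below the water tumors, a pattern found in 15.1% of all genes. With 3 tumors a group, an exact two-sided permutation test of a single gene cannot go below p = 0.1.

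**Figure D1:**
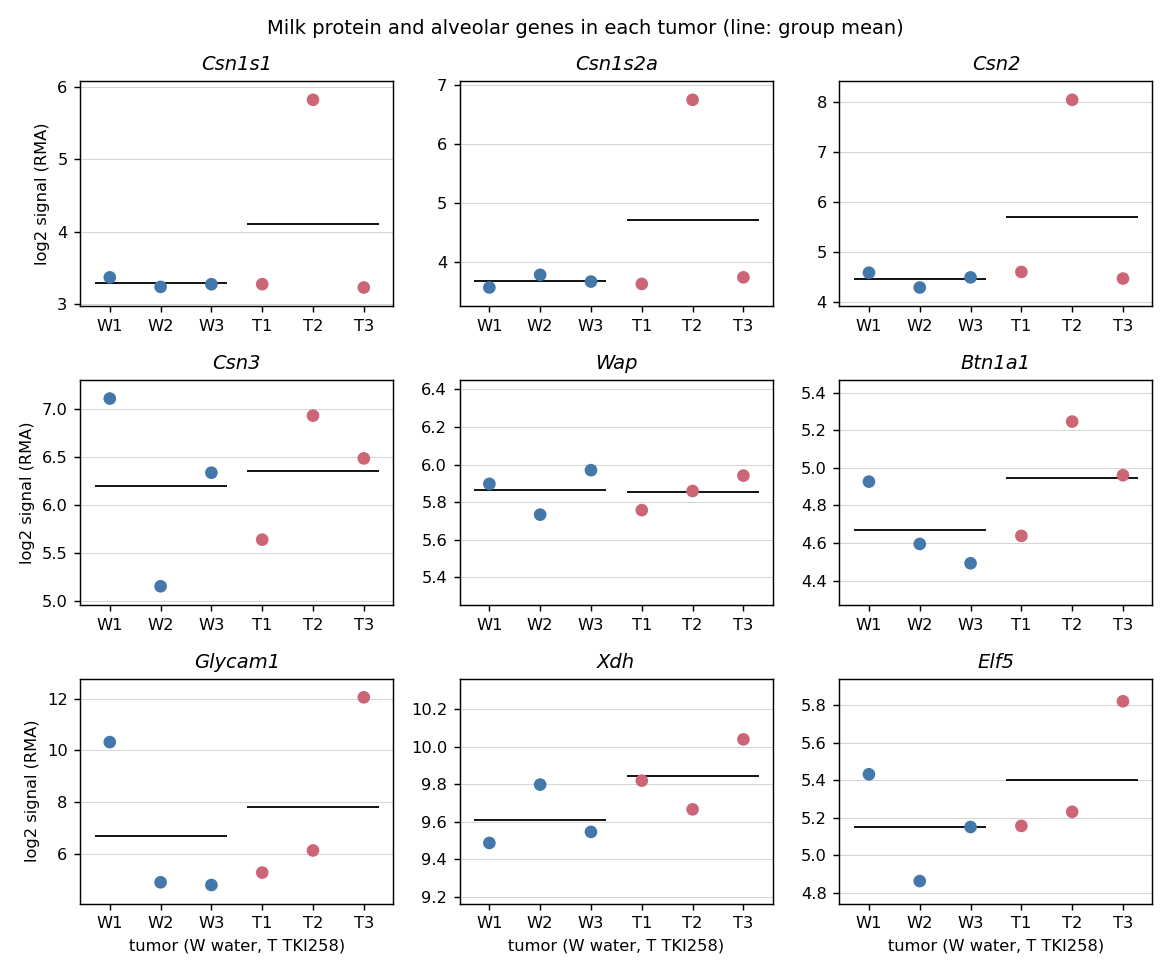
Log2 signal (y axis, a separate range for each gene) of the 9 measured members in each tumor (x axis; W, water, blue; T, TKI258, red; number, replicate), with a line at each group mean. Csn1s1, Csn1s2a and Csn2 stand at 5.82, 6.76 and 8.04 in TKI258 replicate 2 and low in the other 5 tumors, and Glycam1 stands at 10.32 in water replicate 1 and 12.06 in TKI258 replicate 3.

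Csn2 encodes β-casein, a major protein of mouse milk. Its signal was 4.59, 4.29 and 4.49 in water replicates 1 to 3 and 4.60, 8.04 and 4.47 in TKI258 replicates 1 to 3. The other tumors thus lay within 0.31 of each other, and TKI258 replicate 2 lay 3.44 above the next (10.9-fold). The water mean was 4.46 ± 0.15 and the TKI258 mean 5.70 ± 2.03 (SD, n = 3). The log2 difference of 1.25 ± 0.91 (SE) did not pass (limma adjusted p = 0.718), and without TKI258 replicate 2 it was 0.08 ± 0.13.

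Csn1s2a and Csn1s1 encode α-caseins and had the same outline. Csn1s2a was 3.56, 3.77 and 3.66 in the water tumors and 3.62, 6.76 and 3.73 in the TKI258 tumors. Csn1s1 was 3.37, 3.24 and 3.28 in the water tumors and 3.28, 5.82 and 3.23 in the TKI258 tumors. In both genes TKI258 replicate 2 alone was high, by 2.98 (7.90-fold) and 2.45 (5.47-fold) over the next tumor. Even in that tumor Csn1s1 was below the array median (percentile 41.8 of probe sets), while Csn1s2a was above it (percentile 54.9). The other 5 tumors spanned 0.22 for Csn1s2a and 0.14 for Csn1s1, all below the median of their arrays. The deposited values carry no detection calls, so whether these low signals exceed background is not known. The log2 differences were 1.04 ± 0.80 for Csn1s2a (limma adjusted p = 0.731) and 0.81 ± 0.67 for Csn1s1 (limma adjusted p = 0.745). They were 0.01 ± 0.11 and -0.04 ± 0.10 without TKI258 replicate 2.

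Csn3 encodes κ-casein, which coats and stabilizes the casein micelle, and it varied in another way. Its signal was 7.11, 5.15 and 6.34 in the water tumors and 5.64, 6.93 and 6.48 in the TKI258 tumors. The groups overlapped throughout, with the highest and the lowest value both in water tumors. The log2 difference of 0.15 ± 0.53 (limma adjusted p = 0.945) was smaller than the SD of either group (0.99 and 0.66). It was -0.37 ± 0.42 without water replicate 2 and 0.61 without water replicate 1.

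The 8 protein-coding genes from Csn1s1 to Csn3 in the mouse reference (GRCm38.p6) were all measured. In chromosomal order they are Csn1s1, Csn2, Csn1s2a, Csn1s2b, Prr27, Odam, BC037156 and Csn3. The wide lead of TKI258 replicate 2 covered the first 3 of them. In Csn3, the last, that tumor was at 6.93, second to the 7.11 of water replicate 1. Csn1s2b, another α-casein gene next to Csn1s2a, was 3.51 to 3.73 over all 6 tumors and 3.59 in TKI258 replicate 2. Prr27, Odam and BC037156 spanned 4.32 to 4.63, 3.17 to 3.36 and 3.27 to 3.56, with TKI258 replicate 2 highest in Prr27 by 0.09 and lowest in BC037156. These 4 neighbours were chosen by position after the casein values were seen. All 4 were below the array medians of 6.38 to 6.44 in every tumor, and whether their probe sets can register a rise was not tested.

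**Figure D2:**
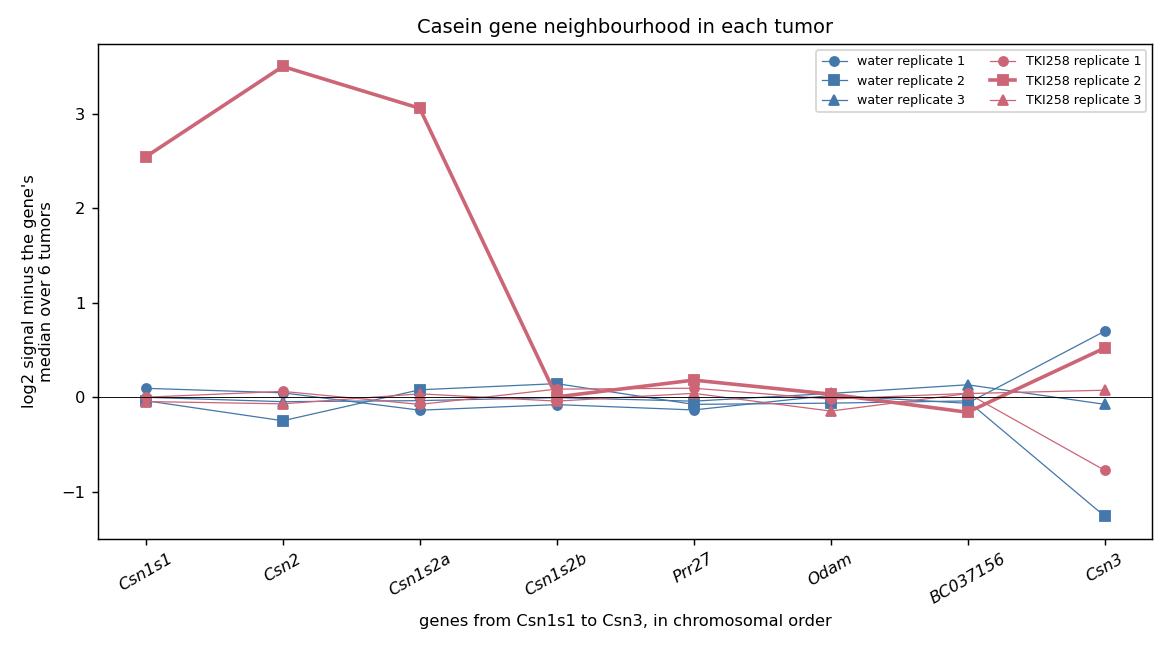
Log2 signal minus each gene's median over the 6 tumors (y axis) for the 8 genes from Csn1s1 to Csn3 in chromosomal order (x axis; spacing not to scale), with a line for each tumor (water blue, TKI258 red; TKI258 replicate 2 drawn thick). TKI258 replicate 2 is above all other tumors at Csn1s1, Csn2 and Csn1s2a, by 2.45 to 3.44 over the next tumor. From Csn1s2b to BC037156 its signal is 3.59, 4.63, 3.35 and 3.27, close to the others. At Csn3 its signal is 6.93, second to water replicate 1 (7.11).

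A gap this wide in 1 tumor was rare. Of 19937 genes, 23 (0.115%) had 1 tumor at least 2 above the next highest: 17 in TKI258 replicate 3, 4 in TKI258 replicate 2, 2 in water replicate 2 and 0 in the others. The 4 in TKI258 replicate 2 (0.0201% of genes) were Csn2, Csn1s2a, Csn1s1 and n-R5s136, a 5S ribosomal RNA gene. This measure was chosen after the casein values were seen.

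Likeness to a member was measured as the mean absolute gap over the 6 tumors between gene profiles centred on their own means. The gene closest to Csn2 was Csn1s2a (gap 0.20), followed by Csn1s1 (0.28). Next came Alox15, a lipoxygenase gene (0.41), n-R5s136 (0.42) and Rnu3a, a U3 small nucleolar RNA gene (0.51). The same 3 genes stood among the 5 closest to Csn1s1, and Csn1s2a had Alox15, n-R5s136 and Rmrp, another small structural RNA, beside the caseins. Alox15 was 9.35 in TKI258 replicate 2 and 7.06 to 7.62 in the other tumors. The structural RNAs n-R5s136, Rnu3a and Rmrp were 12.29, 6.08 and 11.53 there and at most 9.85, 4.56 and 10.04 elsewhere. The part of such RNAs, or of sample quality, in the casein values was not tested.

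Wap encodes whey acidic protein, a protease-inhibitor-like protein of rodent whey. Its signal was 5.90, 5.73 and 5.97 in the water tumors and 5.76, 5.86 and 5.94 in the TKI258 tumors, so the 6 tumors spanned 0.24 in all. TKI258 replicate 2, high in 3 caseins, was within the range of the others. Wap was below the array median in all 6 tumors, so whether its level signal exceeds background is not known. The log2 difference was -0.01 ± 0.10 (limma adjusted p = 0.974), and its sign turned without water replicate 1, water replicate 3 or TKI258 replicate 1.

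Btn1a1 and Xdh act in the release of milk fat. BTN1A1 (butyrophilin) sits in the membrane around the fat globule and binds xanthine oxidoreductase, the product of Xdh, an enzyme of purine breakdown found in many tissues. Btn1a1 was 4.93, 4.60 and 4.49 in the water tumors and 4.64, 5.25 and 4.96 in the TKI258 tumors. Its highest value was in TKI258 replicate 2, 0.29 above the next, and the groups overlapped (0.28 ± 0.18, limma adjusted p = 0.700). Xdh was 9.49, 9.80 and 9.55 in the water tumors and 9.82, 9.67 and 10.04 in the TKI258 tumors. It was above the array median in every tumor, the only member of which this holds, and TKI258 replicate 2 was unremarkable in it (0.23 ± 0.13, limma adjusted p = 0.677).

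Elf5 encodes the ETS factor of alveolar cells named above. Its signal was 5.43, 4.86 and 5.15 in the water tumors and 5.16, 5.23 and 5.82 in the TKI258 tumors, below the array median in all 6. The tumor with high caseins was below water replicate 1 and TKI258 replicate 3, and the groups overlapped (0.25 ± 0.22, limma adjusted p = 0.753).

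Glycam1 encodes a mucin-like protein that is secreted into milk and also made by high endothelial venules of lymph nodes. It had the widest spread of the members, from 4.78 to 12.06. A spread of at least 1 was seen in 5 of 9 members (the 4 casein genes and Glycam1) and in 6.51% of all genes. Its signal was 10.32, 4.89 and 4.78 in the water tumors and 5.26, 6.12 and 12.06 in the TKI258 tumors. Water replicate 1 and TKI258 replicate 3 both lay at least 4.20 (18.4-fold) above the other 4 tumors. Only 5 genes (0.0251%) had both of these tumors at least 2 above the rest, a measure chosen after the values were seen: Glycam1, Ms4a1, Cr2, Ifi214 and Cd79a, with Glycam1 at the widest gap. The group difference of 1.15 ± 2.18 was below either SD (3.17 and 3.70; limma adjusted p = 0.887). Dropping water replicate 1 gave 2.98, and dropping TKI258 replicate 3 gave -0.97. Without both tumors it was 0.86 ± 0.29, which did not pass either (limma adjusted p = 0.558).

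The 5 genes with the profile closest to Glycam1 were all B cell markers. They were Ms4a1 (CD20, gap 0.80), the complement receptor gene Cr2 (0.97), the B cell receptor component Cd79a (1.22), Fcer2a (CD23, 1.25) and Cd79b (1.26). Ms4a1, for example, was 7.31 in water replicate 1, 9.67 in TKI258 replicate 3 and 4.15 to 4.29 in the rest. The B cell list mean was 6.87 and 8.71 in these tumors and 5.08 to 5.29 elsewhere, and 12 of 12 measured markers were highest in TKI258 replicate 3 and second in water replicate 1. In the list of high endothelial venule and lymph node stroma genes, which shares Cr2 and Fcer2a with the B cell list, the mean was 7.39 and 8.32 there and 6.30 to 6.58 elsewhere. Of its 10 measured genes, 8 were highest in TKI258 replicate 3, while Gcnt1, an enzyme of L-selectin ligands, was highest in water replicate 2 (7.36, over a range of 7.09 to 7.36) and Clu in TKI258 replicate 1 (11.55). Its venule genes Chst4 and Fut7, which also encode enzymes of these ligands, and Madcam1, a venule adhesion molecule, were chosen after their values were seen and had their highest values in TKI258 replicate 3 (5.40, 5.72 and 5.77) and the next in water replicate 1 (5.17, 5.32 and 5.48). The lowest values of these 3 genes were 4.52, 4.94 and 4.96, a spread below that of Glycam1. All 3 were below the array median in every tumor, so whether their signals exceed background is not known. The part of lymph node tissue in the Glycam1 values was not tested. In the same tumors Csn2 was 4.59 and 4.47, within the range of the low tumors.

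**Figure D3:**
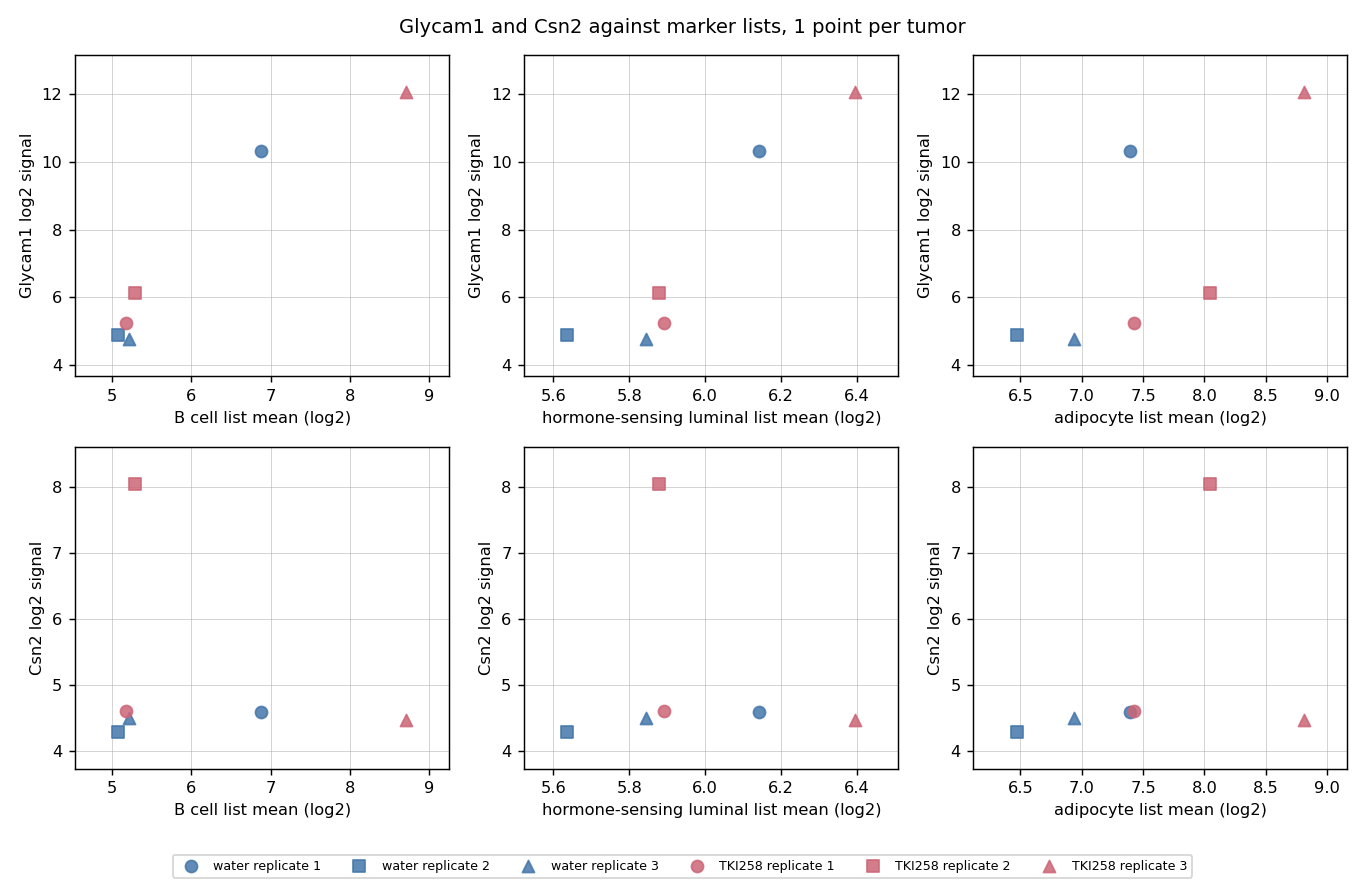
Log2 signal of Glycam1 (top row) and Csn2 (bottom row) against the mean log2 signal of the B cell, hormone-sensing luminal and adipocyte marker lists (x axes), with 1 point for each tumor (water blue, TKI258 red). Both tumors with high Glycam1 have the highest B cell and hormone-sensing list means, whereas TKI258 replicate 2, with Csn2 at 8.04, has a B cell mean of 5.29, a hormone-sensing mean of 5.88 and an adipocyte mean of 8.05.

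Marker lists of normal gland were set beside the casein values, since host gland in a sample would carry them. In TKI258 replicate 2 the luminal epithelium list mean was 7.80, inside the 7.42 to 8.00 of the other tumors, and 0 of 15 markers were highest there. This list includes Krt8 and Krt18, which were high in every tumor, so its mean cannot show a small share of gland. The hormone-sensing luminal list, with 8 of 12 markers measured, was 5.88 there against 5.64 to 6.40, again with 0 highest. The myoepithelial list was lowest there, at 6.65 against 6.78 to 7.56, although its keratins Krt5, Krt14 and Krt17 are shared with skin. Adipocyte markers were high in that tumor: the list mean of 8.05 was second to the 8.81 of TKI258 replicate 3, and all 12 measured markers were second highest there. TKI258 replicate 3 was highest in 12 of 12 adipocyte and 7 of 8 hormone-sensing markers. Its Csn1s1, Csn1s2a and Csn2 signals of 3.23, 3.73 and 4.47 were among those of the low tumors. The list of alveolar and luminal regulators was 7.39 in TKI258 replicate 2 and 7.36 to 7.51 elsewhere, with 1 of 16 genes highest there. Other milk proteins and secretory products had a mean of 6.63 in that tumor and 6.31 to 6.78 elsewhere, with 4 of 18 highest there. For milk fat genes it was 9.04 against 8.63 to 9.15, with 5 of 18 highest there. Over all 19937 genes, 3002 were highest in that tumor. The part of host gland, alveolar cells included, in the casein values was not tested.

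In some members the 3 top ranks fell in the same 3 tumors, whatever the step between them. Csn3, Btn1a1, Glycam1 and Elf5 had their 3 highest values in water replicate 1 and TKI258 replicates 2 and 3, which was true of 4 of 9 members and 6.18% of all genes. Among other milk proteins and secretory products it was true of 7 of 18 genes: Muc1, Muc15, Cel, Olah, Wfdc18, Trf and Lpo. The gene closest to Csn3 in profile was Muc15, a mucin of the milk fat globule membrane (gap 0.22), at 5.26, 3.76 and 4.29 in water and 4.03, 5.04 and 4.99 in TKI258 tumors. It was followed by Cyp3a57, Arfgef3, Nipal2 and Olfr279 (gaps 0.37 to 0.39). The same 3 tumors were highest for 6 of 12 adipocyte, 6 of 12 B cell and 6 of 18 milk fat genes. In the B cell list the first 2 ranks were fixed, and its mean in TKI258 replicate 2 was 5.292. That is near the 5.08, 5.215 and 5.181 of water replicates 2 and 3 and TKI258 replicate 1. The counts were 2 of 8 hormone-sensing, 2 of 12 endothelial, 2 of 15 luminal and 2 of 16 regulator genes. They were 2 of 10 venule and lymph node genes, 1 of 17 prolactin pathway genes, and 0 of 12 keratinocyte, 0 of 12 myoepithelial and 0 of 12 skeletal muscle markers. These tumors were singled out after their values were seen, so the counts are descriptions.

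Genes around the members were read from lists of the lactation program. Of 18 measured milk proteins and secretory products, 15 were higher and 3 lower in TKI258 tumors (median 0.14), and 0 passed limma's adjusted test. The smallest p values belonged to Pigr, the receptor that carries antibodies into milk (0.26 ± 0.10), the phosphate transporter Slc34a2 (-0.21 ± 0.09) and lipocalin 2, Lcn2 (0.43 ± 0.19), each without overlap between groups. Pigr and Slc34a2 were below the array median in every tumor, so whether their signals exceed background is not known. Of these 18 genes, 2 were separated upward and 1 downward, whereas 15.1% of all genes were separated in either direction. Of 18 milk fat genes, 11 were higher and 7 lower (median 0.10), and 0 passed. The acyltransferase gene Gpam (0.43 ± 0.13), the fatty acid transporter Cd36 (1.13 ± 0.43) and lipoprotein lipase, Lpl (1.19 ± 0.48), led by p. Fat cells express all 3, and the adipocyte list had 12 of 12 measured members higher (median 1.06), of which 0 passed. At an unadjusted limma p under 0.05 there were 8 of these 12, all higher, against 8.06% of all probe sets. The groups did not overlap in 6 of the 12, against 15.1% of all genes. The part of fat tissue in these differences was not tested.

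The prolactin pathway was nearly level. Of 17 measured genes, 11 were higher and 6 lower (median 0.06), and 0 passed limma's adjusted test. The prolactin receptor gene Prlr had no probe set of its own and was not analysed here. Stat5a was 8.30, 8.39 and 8.02 in the water tumors and 8.38, 8.48 and 8.42 in the TKI258 tumors (0.19 ± 0.12, limma adjusted p = 0.681). Its value in TKI258 replicate 2 was the highest, by less than the range of the water tumors. The growth hormone receptor gene Ghr (0.59 ± 0.15) was higher in every TKI258 tumor than in every water tumor, with limma adjusted p = 0.562. Of the 17 genes, 1 was thus separated upward and 0 downward, whereas 15.1% of all genes were separated in either direction. Tnfsf11 (RANK ligand, a signal for alveolar growth) differed by 0.33 ± 0.15 (limma adjusted p = 0.646), with overlap between the groups. Among 16 regulators of alveolar and luminal cells, 8 were higher and 8 lower (median 0.01). The groups did not overlap for Nfib, an NF1 factor (0.47 ± 0.10), for Sox9 (-0.42 ± 0.11) or for Erbb4, a neuregulin receptor gene (0.09 ± 0.08). None of them passed (limma adjusted p = 0.517, 0.569 and 0.747), and Erbb4 was below the array median in every tumor. Of the 16 regulators, 2 were thus separated upward and 1 downward, whereas 15.1% of all genes were separated in either direction. Gata3, a luminal regulator, differed by -0.28 ± 0.13.

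**Figure D4:**
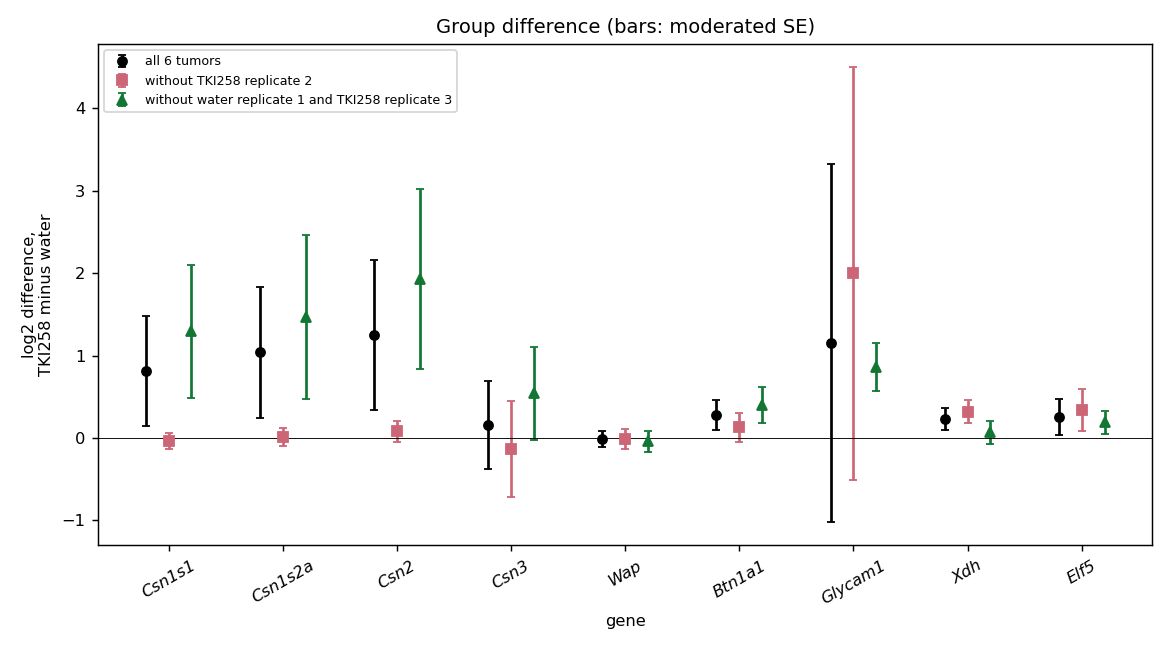
Log2 difference between TKI258 and water tumors (y axis, TKI258 minus water; bars, moderated SE) for each member (x axis), with all 6 tumors (black circles), without TKI258 replicate 2 (red squares) and with both tumors high in Glycam1 left out (green triangles). The Csn1s1, Csn1s2a and Csn2 differences of 0.81, 1.04 and 1.25 are -0.04, 0.01 and 0.08 without TKI258 replicate 2, and Glycam1 has the widest error with all 6 tumors (2.18).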

How the data were processed

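The authors deposited log2 signals per probe set. The submitters' processing notes name RMA, a method that corrects background, normalizes between arrays and summarises probes, together with affy and limma. For tool versions and genome build the sources used here say nothing. The table held 34760 probe sets on 6 arrays. Names came from the platform annotation, in which 21640 probe sets had 1 gene, 1321 several and 11799 none listed. Symbols were checked by Entrez number against RefSeq (GRCm38.p6), where 21553 matched and 0 changed.

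TKI258 was compared with water by limma (lmFit and eBayes, two-sided; R 4.3.3, limma 3.58.1) over all probe sets without a filter, with group as the only term and Benjamini-Hochberg adjustment. SE are moderated. The test was tried on simulated data with known changes. Array number limits the precision. Members and gene lists were chosen with earlier results of these data known. Every member was named, with the 3 genes of smallest p in the lactation lists, markers as values, and the 5 closest profiles of members spanning at least 1. Lists were described without a test. Promoter windows came from RefSeq, where 7 of the 10 genes had an entry; Csn3, Btn1a1 and Xdh did not. The alternatives were quantile normalization, median centring, a low-signal filter, 1 value or probe set per gene, another eBayes prior, array weights, a replicate block and arrays left out.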

Additional observations from a re-analysis of the deposited data

How the results depend on the processing

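No member passed limma's adjusted test under any of the 16 alternatives run (limma adjusted p 0.558 to 1.00). The low-signal filter kept 2 members (Csn3 and Xdh). Leaving out 1 array at a time, the log2 difference was -0.042 to 1.25 for Csn1s1, 0.01 to 1.58 for Csn1s2a and 0.08 to 1.87 for Csn2, each lowest without TKI258 replicate 2. It was -0.37 to 0.61 for Csn3, -0.97 to 2.98 for Glycam1 and -0.081 to 0.038 for Wap. Btn1a1, Xdh and Elf5 kept their sign there (0.13 to 0.43, 0.13 to 0.32 and 0.05 to 0.40). Members without overlap between groups numbered 0 to 3 of 9, against 22.8% to 27.8% of all genes in the same settings, and probe sets passing 0 to 3, the 3 (Krt1, Krtdap and one listing several genes) without water replicate 1. Leaving out both arrays high in B cell markers gave 5 members without overlap (40.9% of all genes) and 1 probe set passing (Krt1). Leaving out both water arrays high in keratinocyte markers gave 3 members without overlap (42.2% of all genes) and turned Csn3 (-0.76), Elf5 (-0.028) and Glycam1 (-2.51); the lone water array was assumed to vary like the TKI258 arrays. Array weights turned Csn3 (-0.27) and Glycam1 (-0.65); the cause was not tested. With the replicate number as a block 0 members and 0 probe sets passed. Deviations of same-numbered arrays from their group means correlated at -0.23, 0.19 and 0.01. The labels do not say whether the numbers pair the tumors, and with 3 arrays a group these correlations cannot decide it. A pseudocount does not apply to log2 values. The deposited table holds no background signal, so the low casein, Wap, Btn1a1 and Elf5 signals have no detection limit.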
